A study of Gallus gallus with 2 samples.

Results

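The zinc finger protein CTCF binds a long, conserved DNA sequence at insulators, and with cohesin it holds the bases of chromatin loops. In chicken it is well known from the insulator at the edge of the beta-globin genes, a cluster whose members are switched during red cell development. Chicken red cells keep their nucleus, so binding can be mapped in them by chromatin immunoprecipitation followed by sequencing (ChIP-seq). Described here are the stronger CTCF peaks that were listed in red blood cells labelled 10 days old with no peak nearby in the list from cells labelled 5 days old. They number 570 of the 21358 peaks in the 10 day list.

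The 570 peaks were chosen by their scores and positions in both lists. Each had a 10 day score of at least 35, lay on an assigned chromosome (1 to 28 or Z), and had no 5 day peak starting within 10 kb. They are called 10 day-only peaks below, which means absence from the other list and not absence of binding. The authors gave each peak a whole-number score. The sources used here state neither its unit nor any scaling to library size, so scores are compared only within a list. The lists overlapped at 3372 of the 10 day peaks, counting any overlap of 1 bp or more, and these are called shared peaks.

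The study examined red blood cells at 2 ages, with 1 ChIP library and 1 peak list per age, using an antibody to CTCF. The first group is red blood cells 10 days old (21358 peaks) and the second is red blood cells 5 days old (5830 peaks). The labels give no strain or number of birds and do not say whether days were counted before or after hatching. The culture and treatment fields of both libraries describe stimulated mononuclear blood cells in place of red cells, and a peak list holds no marker that could check the cell type. With 1 library per age there is no measure of the spread between birds or preparations, and no test compares the ages. Read totals are unknown, so a peak missing from the shorter 5 day list may lie below its limit. The lowest listed score was 22 at 10 days and 13 at 5 days. Intervals in parentheses are 95% intervals of counting error within these libraries, and peaks are not independent replicates. The genome build is not given in the sources used here, and genes and the CTCF motif were not analysed here. Positions are as in the deposited lists, with the first base counted as 1.

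Among all 20211 peaks of the 10 day list on assigned chromosomes, 76.2% had no 5 day start within 10 kb. Among the 2500 with a score of at least 35, the 570 were 22.8% (21.2 to 24.5), and among the 17711 with a lower score the share was 83.8%. Since score and distance made the choice, these shares only describe it. Of the other 1930 stronger peaks, 1783 were shared and 147 did not overlap a 5 day peak but had one starting within 10 kb.

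The 10 day-only peaks were crowded against the lower score limit. Their median score was 38, with an interquartile range of 36 to 41 and a maximum of 70, and 205 of them scored 35 or 36. The 1783 stronger shared peaks had a median score of 59, an interquartile range of 44 to 81.5 and a maximum of 816. The share of 10 day peaks without a 5 day neighbour fell along the score range. It was 53.9% (50.3 to 57.6) of the 736 peaks scoring 35 to 39, 30.6% (25.9 to 35.6) of the 366 scoring 40 to 44 and 17.8% (12.8 to 23.7) of the 208 scoring 45 to 49. Among the 306 peaks scoring 50 to 59 it was 7.52% (4.82 to 11.1). At 60 or more there was 1 such peak in 884. None of the 239 peaks scoring at least 100 was 10 day-only. A count of 0 there allows a share of up to 1.26% by a limit of 3 counts, or 1.53% by the Clopper-Pearson interval.

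**Figure D1:**
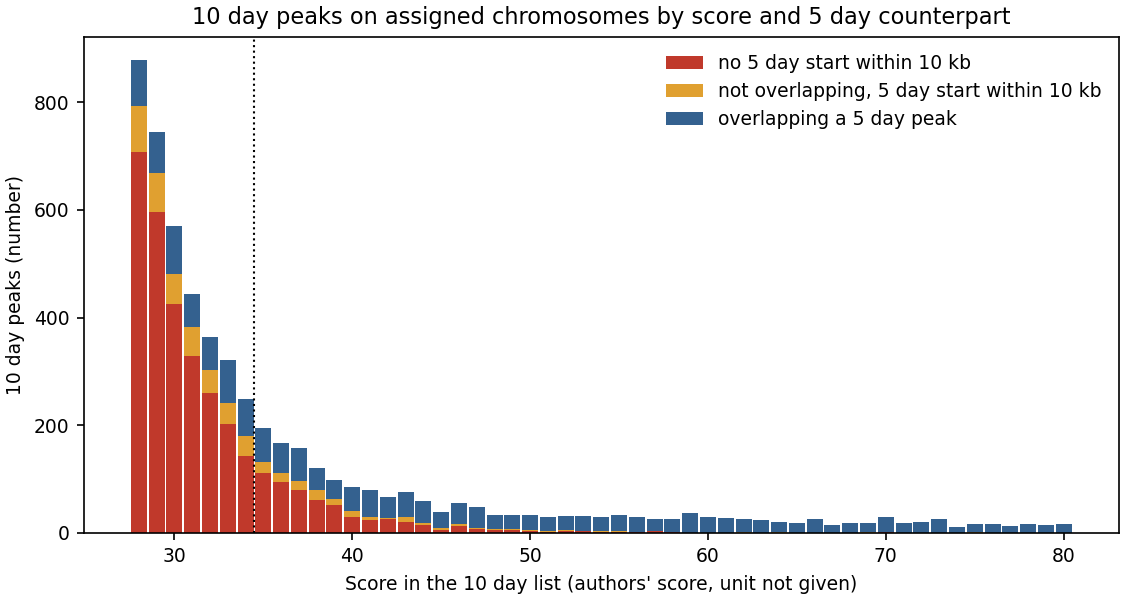
Number of 10 day peaks on assigned chromosomes (vertical axis) at each score of the 10 day list (horizontal axis), divided into peaks with no 5 day start within 10 kb (bottom), peaks that do not overlap a 5 day peak but have a 5 day start within 10 kb (middle) and shared peaks (top). To the right of the dotted line, which marks the score limit of 35, the bottom part shrinks from 111 peaks at a score of 35 to 0 at 59 and 60.

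Both limits of the choice cut through a continuous range. Just inside the score limit, 111 of the 194 peaks scoring 35 had no 5 day start within 10 kb, a share of 57.2% (49.9 to 64.3). Just outside it, 143 of the 249 peaks scoring 34 had none, a share of 57.4% (51.0 to 63.7). At the distance limit, the closest 10 day-only peak was on chromosome 11 at 3844516 to 3844914 (score 37), with a 5 day start 10066 bp away. The nearest stronger peak left out was on chromosome 5 at 40275629 to 40276027 (score 37), with a 5 day start 9943 bp away. A 5 day start lay within 20 kb for 76 of the 570 (13.3%, 10.7 to 16.4). The share was 8.76% (8.31 to 9.22) for the 14835 weaker 10 day peaks with no 5 day start within 10 kb. For the 10 day-only peaks the median distance to the nearest 5 day start was 89.0 kb (78.9 to 100.1), and the farthest was 2824 kb. The median for those weaker peaks was 119 kb (115 to 122). These values pool all chromosome classes and concern a distance used by the rule, so they are described only.

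Where a 10 day peak of similar score was shared, its 5 day partner was seldom at the bottom of the 5 day list. For the 255 shared peaks scoring 35 to 39 at 10 days, the partner had a median 5 day score of 29 (interquartile range 20 to 38), and 25 partners (9.80%, 6.45 to 14.1) scored 15 or less at 5 days. For the 220 scoring 40 to 44 at 10 days, the median partner score was again 29 (interquartile range 20 to 40), and 22 partners (10.0%, 6.37 to 14.7) scored 15 or less. Over all 5 day peaks on assigned chromosomes the median was 22 and the interquartile range 15 to 37. A 10 day score of this size therefore went with a wide range of 5 day scores where both existed. Partners are known only for positions that passed the 5 day limit, so their scores do not describe the 10 day-only positions. How many 10 day-only positions lay just below the 5 day limit was not tested, since the lists give no signal outside peaks.

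The 10 highest scoring 10 day-only peaks lay on 7 chromosomes. The highest scored 70, and its position was 49513674 to 49514072 on chromosome 5. It ranked 633 of the 20211 peaks on assigned chromosomes, had no other 10 day peak within 10 kb, and lay 378 kb from the nearest 5 day start and 560.3 kb from the nearest shared peak. A pair followed with a score of 58. On chromosome 1, the peak at 40039779 to 40040177 stood alone, 48.2 kb from a shared peak. On chromosome 5, the peak at 53316218 to 53316616 had 3 other 10 day peaks within 10 kb and lay 91.5 kb from a shared peak.

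A further 3 peaks scored 57. Of these, the chromosome 1 peak at 128186285 to 128186683 had no other 10 day peak even within 100 kb, and its nearest shared peak was 189 kb away. Next, the chromosome 20 peak at 6603971 to 6604369 was 61.4 kb from the nearest 5 day start, and the Z peak at 71542869 to 71543267 was 11.3 kb from it, close to the limit. The Z site was the more crowded of these, with 12 other 10 day peaks within 100 kb. The remaining 4 of the 10 scored 56 on chromosome 6 at 36972603 to 36973001, 56 on chromosome 18 at 6797578 to 6797976, 55 on Z at 57800774 to 57801172, and 54 on chromosome 2 at 106995669 to 106996067. The first of these had 19 other 10 day peaks within 100 kb, whereas the last had 2 and was 1043 kb from the nearest shared peak. Strong 10 day-only peaks were thus found both in crowded stretches and standing alone.

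Every assigned chromosome in the 10 day list had at least 1 10 day-only peak. Besides those above, the highest was on chromosome 3 at 94162763 to 94163161 (score 52), chromosome 4 at 15538146 to 15538544 (score 48), chromosome 7 at 31796194 to 31796592 (score 49), chromosome 8 at 2599142 to 2599540 (score 51), chromosome 9 at 21595225 to 21595623 (score 50) and chromosome 10 at 9868633 to 9869031 (score 44). Their nearest 5 day starts were 12.1 kb away on chromosome 7, 20.9 kb on chromosome 10, and 71.9 to 571 kb on the others. On chromosomes 11 to 17 the highest were on chromosome 11 at 9615586 to 9615984 (score 45), chromosome 12 at 13513460 to 13513858 (score 50), chromosome 13 at 2789142 to 2789540 (score 44), chromosome 14 at 3823270 to 3823668 (score 40), chromosome 15 at 12598125 to 12598523 (score 49), chromosome 16 at 179098 to 179496 (score 41) and chromosome 17 at 10765168 to 10765566 (score 45). None of these 7 was among the 1000 highest scoring peaks on assigned chromosomes, which held 8 of the 10 day-only peaks in all.

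Scores were of the same order on the remaining microchromosomes. The highest 10 day-only peaks were on chromosome 19 at 1013311 to 1013709 (score 44), chromosome 21 at 629333 to 629731 (score 44), chromosome 22 at 2170234 to 2170632 (score 36), chromosome 23 at 931813 to 932211 (score 50) and chromosome 24 at 3584275 to 3584673 (score 53). The chromosome 24 peak had 4 other 10 day peaks within 10 kb. Further highest peaks were those of chromosome 25 at 1640292 to 1640690 (score 49), chromosome 26 at 3379482 to 3379880 (score 43), chromosome 27 at 2826871 to 2827269 (score 39) and chromosome 28 at 2926703 to 2927101 (score 43). The median score of the 10 day-only peaks was 38 on macrochromosomes, microchromosomes and Z, and 37 on intermediate chromosomes.

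The chromosomes of the chicken differ greatly in size, and the small ones are rich in genes. The 10 day-only peaks were 309 on macrochromosomes (1 to 5), 101 on intermediate chromosomes (6 to 10), 130 on microchromosomes (11 to 28) and 30 on Z. Their density was 0.494 per Mb on macrochromosomes (0.440 to 0.552), 0.654 on intermediate chromosomes (0.532 to 0.794), 0.739 on microchromosomes (0.617 to 0.877) and 0.402 on Z (0.271 to 0.574). The stronger shared peaks stood at 1.23, 1.83, 3.56 and 1.42 per Mb in the same order. The rise towards small chromosomes was therefore shallower among the 10 day-only peaks. The rule splits these sets by presence in the 5 day list, which was itself denser on small chromosomes. That list held 2111 peaks over 626 Mb of macrochromosomes and 1857 over 176 Mb of microchromosomes. The shallower rise is thus not read as a trait of the 10 day-only peaks.

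Microchromosomes held 1.50 times the macrochromosome density of 10 day-only peaks (1.21 to 1.84), against 2.91 times for stronger shared peaks (2.61 to 3.23). For the 14835 weaker 10 day peaks with no 5 day start within 10 kb the ratio was 1.21 (1.16 to 1.26), and its interval overlapped that of the 10 day-only peaks. The rule itself bears on these ratios, because 5 day peaks were denser on small chromosomes: 82.7% of the microchromosome length and 94.1% of the macrochromosome length lay farther than 10 kb from every 5 day start. Counted over that length alone, a denominator chosen after the data were seen, the ratio was 1.70 (1.38 to 2.09) for the 10 day-only peaks and 1.38 (1.32 to 1.44) for the weaker ones. Counted per 10 day peak of any score in place of Mb, the ratio of the 10 day-only peaks was 0.930 (0.752 to 1.15), so as a share of the list they were not detectably denser on microchromosomes. The ratios were also compared at equal score. At 35 to 39 the ratios were 1.55 (1.20 to 1.98) for 10 day-only peaks and 2.48 (1.85 to 3.33) for shared peaks, with overlapping intervals. At 40 to 49 they were 1.35 (0.872 to 2.06) and 3.10 (2.44 to 3.93), with intervals apart. The ratio was thus lower for 10 day-only peaks in both bands, which are still split by the same rule. Overlap of separate intervals is not a test of a difference, so the bands are not contrasted on it.

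Put as a share of the stronger 10 day peaks, the 10 day-only peaks made up 27.4% (24.9 to 30.1) on macrochromosomes, 24.3% (20.3 to 28.8) on intermediate chromosomes, 16.1% (13.6 to 18.8) on microchromosomes and 19.7% (13.7 to 27.0) on Z. A fall towards microchromosomes was also seen among weaker peaks, so it was not particular to the 10 day-only peaks. Weaker peaks with no 5 day start within 10 kb were 8786 of the 10996 peaks of any score in the 10 day list on macrochromosomes. They were 2317 of 3250 on intermediate chromosomes, 2998 of 4972 on microchromosomes and 734 of 993 on Z. Single chromosomes held few peaks, and most could not be ordered. Chromosome 1 had 98 of 358 stronger peaks in the 10 day-only group (27.4%, 22.8 to 32.3), chromosome 2 had 72 of 234 (30.8%, 24.9 to 37.1) and chromosome 3 had 62 of 198 (31.3%, 24.9 to 38.3). These 3 and chromosome 24, with 11 of 24 (45.8%, 25.6 to 67.2), had intervals above the 22.8% of all assigned chromosomes. Intervals below it were found on chromosome 14, with 3 of 67 (4.48%, 0.933 to 12.5), chromosome 18, with 5 of 48 (10.4%, 3.47 to 22.7), and chromosome 27, with 2 of 33 (6.06%, 0.743 to 20.2). The other 22 of the 29 intervals held it. Set against their own class, the intervals of chromosomes 1, 2 and 3 held the macrochromosome share of 27.4%. Those of chromosomes 18 and 27 held the microchromosome share of 16.1%, while those of chromosomes 14 and 24 did not. Chromosomes 24 and 14 are described next because their shares were the most extreme among those 7. Chromosome 14 carries the alpha-globin genes of the chicken, but gene positions were not analysed and no link of its share to these genes was tested. The density on chromosome 24 was 1.72 per Mb (0.861 to 3.09) for 10 day-only peaks and 1.88 per Mb (0.972 to 3.29) for shared peaks, and on chromosome 14 it was 0.190 per Mb (0.0392 to 0.555) for 10 day-only peaks and 3.80 per Mb (2.90 to 4.89) for shared peaks. The highest density, 4.77 per Mb on chromosome 16, rested on 2 peaks (0.578 to 17.2).

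**Figure D2:**
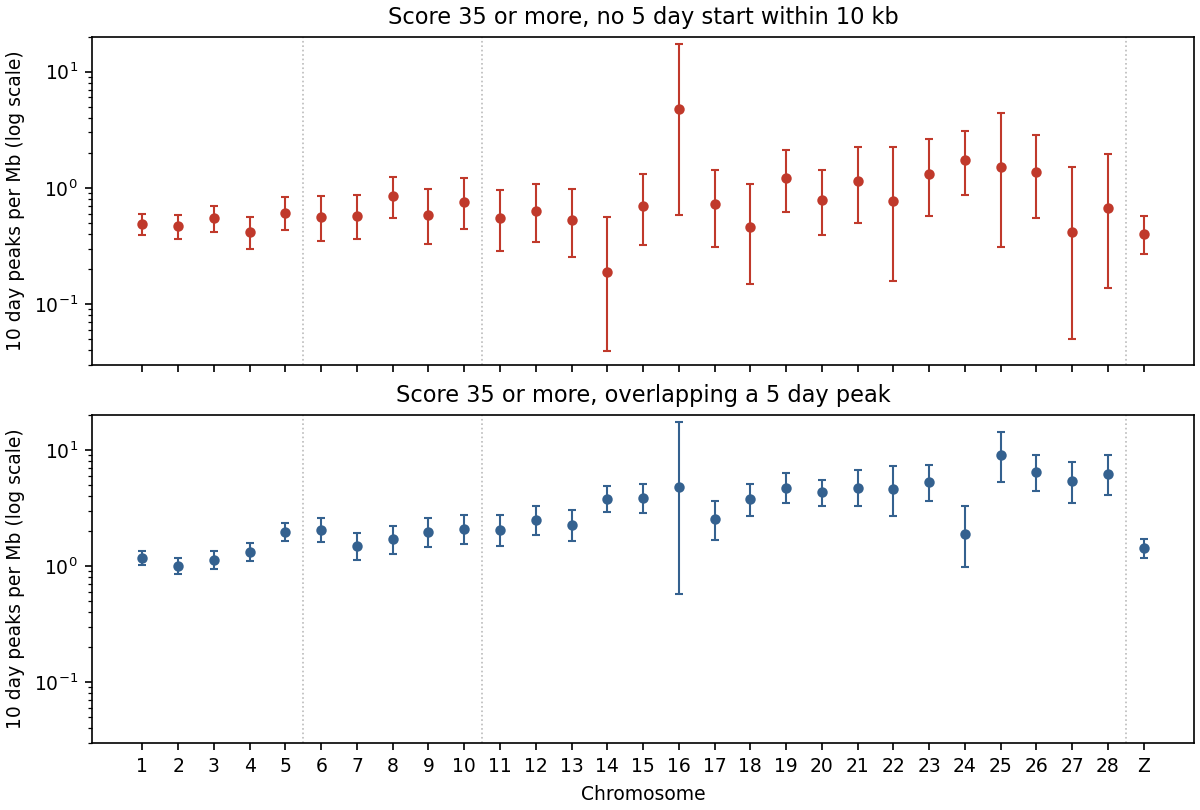
Peaks per Mb (log scale) on each assigned chromosome for 10 day-only peaks (upper panel) and stronger shared peaks (lower panel), with exact Poisson 95% intervals and dotted lines between macrochromosomes, intermediate chromosomes, microchromosomes and Z. The upper panel lies between 0.190 and 4.77 and rises less towards the small chromosomes than the lower panel; chromosome 14 is the lowest and chromosome 16 the highest point above.

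How far the 10 day-only peaks lay from the positions listed at both ages was in part set by the rule. Their median distance to the nearest shared peak was 163 kb (135 to 191), with an interquartile range of 62.4 to 415 kb. By the rule no value could fall below about 10 kb, and the shortest was 10.4 kb. Within 20 kb of a shared peak were 39 of the 570 (6.84%, 4.91 to 9.23), within 100 kb 214 (37.5%, 33.6 to 41.7), and 35 (6.14%, 4.31 to 8.44) were more than 1000 kb away. The weaker 10 day peaks under the same distance rule had a median of 198 kb (193 to 205), farther than the 10 day-only peaks by intervals that did not overlap. Within the chromosome classes the intervals of the same comparison overlapped in all 4. The medians were 266 kb for 10 day-only and 287 kb for weaker peaks on macrochromosomes, 105 and 155 kb on intermediate chromosomes, 90.3 and 89.8 kb on microchromosomes, and 198 and 272 kb on Z. Stronger shared peaks, which are free of the 10 kb limit, lay a median of 47.5 kb (43.8 to 51.4) from the next shared peak.

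**Figure D3:**
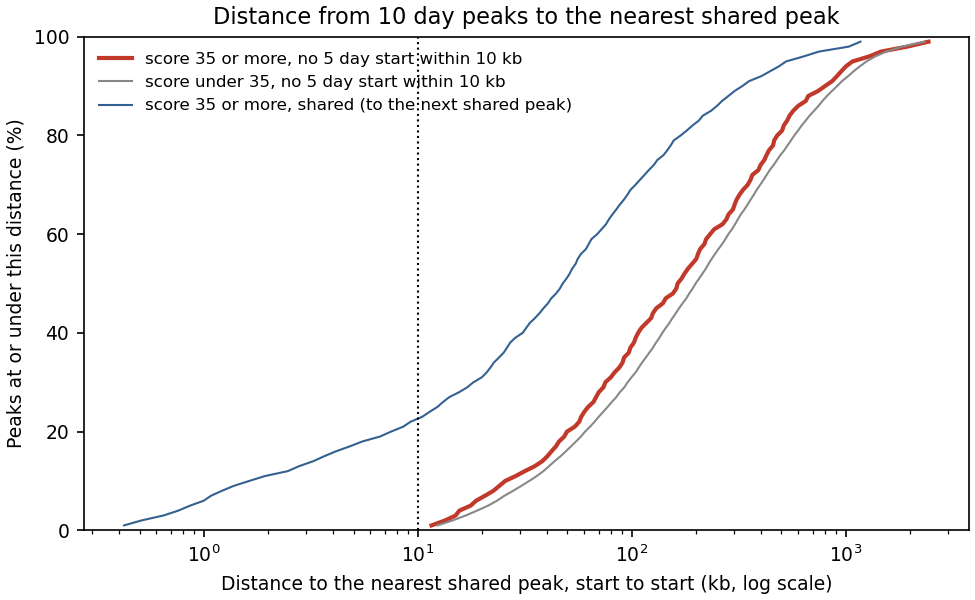
Percentage of peaks (vertical axis) at or under a given distance to the nearest shared peak in kb (horizontal axis, log scale) for 10 day-only peaks, for weaker 10 day peaks with no 5 day start within 10 kb and for stronger shared peaks, each measured to the next shared peak. The dotted line marks 10 kb, the limit of the rule for the first 2 sets, whose curves run close together with medians of 163 and 198 kb, to the right of the shared peaks at 47.5 kb.

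Shared peaks divided the assigned chromosomes into 2842 stretches between neighbours, with a median length of 120 kb. Of the 570 peaks 563 had a shared peak on either side, and 7 lay beyond the outermost shared peak of their chromosome. They fell into 421 stretches, of which 320 held 1 and 101 held 2 or more, and those with any were a median of 678 kb long. A longer stretch offers more room, so this length is no measure of preference. The most in a stretch was 5, reached in 4 stretches. These were 6065 kb long on chromosome 1, 2480 and 2505 kb on chromosome 3 and 380 kb on chromosome 21. The farthest 10 day-only peaks from a shared peak were on chromosome 1 at 163182864 to 163183262 (score 35, 2824 kb), chromosome 2 at 154596434 to 154596832 (score 42, 2801 kb) and chromosome 1 at 99015167 to 99015565 (score 40, 2733 kb). The chromosome 2 peak nevertheless had a 5 day start 18.9 kb away, at an unmatched 5 day peak with a score of 13.

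Many of the 10 day-only peaks had company in their own list: for 210 of the 570 (36.8%, 32.9 to 40.9), another 10 day peak of any score started within 10 kb. The rule bears on this spacing, because it keeps shared peaks out of nearly all of the 10 kb around each 10 day-only peak. With no overlap required in place of the 10 kb distance, 45.9% (42.2 to 49.6) of the stronger peaks so chosen had company. The weaker peaks with no 5 day start within 10 kb, which meet the same distance rule, had company in 34.5% of cases (33.8 to 35.3), within counting error of the 10 day-only peaks. Stronger shared peaks, which can have shared neighbours, had it in 45.1% (42.8 to 47.4), and no difference is read from this. By class, company was found for 32.0% (26.9 to 37.6) of 10 day-only peaks on macrochromosomes, 39.6% on intermediate chromosomes and 47.7% (38.9 to 56.6) on microchromosomes, and for 9 of 30 on Z. Within the group, 360 peaks had no neighbour within 10 kb, 141 had 1, 52 had 2, 13 had 3, 3 had 4 and 1 had 5.

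**Figure D4:**
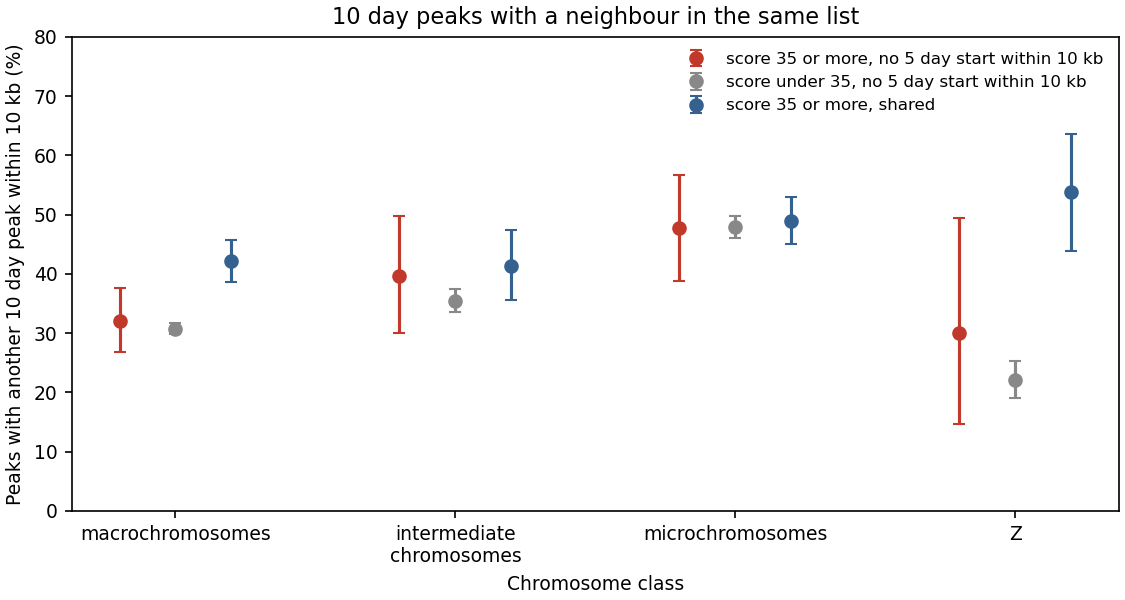
Percentage of peaks with another 10 day peak starting within 10 kb (vertical axis), by chromosome class (horizontal axis), for 10 day-only peaks, weaker 10 day peaks with no 5 day start within 10 kb and stronger shared peaks; points are shares and bars exact Clopper-Pearson 95% intervals. For the first 2 sets the intervals overlap in every class, at 32.0% and 30.7% on macrochromosomes and 47.7% and 47.9% on microchromosomes. The distance rule limits the first 2 sets and not the shared peaks.

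The 210 peaks had 289 different neighbours within 10 kb, of which 20 were themselves 10 day-only peaks. Of the other 269, 266 scored under 35. Leaving out the 10 day-only peaks largely set this count. A neighbour scoring 35 or more could stay only if it had a 5 day start within 10 kb. In the whole 10 day list on assigned chromosomes, 17711 of 20211 peaks scored under 35. The 266 cannot be compared with that share, and no conclusion is drawn from it. The median score of the 269 was 24, which equalled that of all weaker peaks with no 5 day start within 10 kb. None of the 289 was shared, which follows from the rule to within the width of a peak, and 19 of the 269 had a 5 day start within 10 kb of their own. A neighbour started within 1 kb of 22 of the 10 day-only peaks, and the closest was 0.315 kb away. That is less than the peak width of 399 bp, so a neighbour can overlap the peak and need not be a separate site.

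The most crowded 10 day-only peaks, with 5 or 4 neighbours, were on chromosomes 11, 7 and 13, and on chromosome 24 at the position given above. The peak on chromosome 11 at 21328420 to 21328818 (score 38) had 5 neighbours within 10 kb with scores of 24 to 29, starting between 6627 bp before it and 6733 bp after it. There were 26 other 10 day peaks within 100 kb of it, and the nearest 5 day start was 100.1 kb away with the lowest score of its list. On chromosome 7, the peak at 11636286 to 11636684 (score 46) had 4 neighbours, of which 1, at 11630211 to 11630609 (score 37), was also 10 day-only. On chromosome 13, the peak at 18362019 to 18362417 (score 39) had 4 neighbours with scores of 22 to 31.

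The spacing of the 10 day-only peaks among themselves depended on their number, which the score limit set. With limits of 30 and 40 in place of 35, 38.8% and 4.62% had another such peak within 100 kb. Whether they were spaced otherwise than their number implies was not tested. The nearest other 10 day-only peak was a median of 583 kb away (505 to 639), and 85 of the 570 (14.9%, 12.1 to 18.1) had another within 100 kb. Within 10 kb of another were 20 (3.51%, 2.16 to 5.37). When peaks up to 100 kb apart were joined, 485 stood alone, 37 groups had 2 members, 2 had 3 and 1 had 5. The group of 5 was on chromosome 21 between 550085 and 740249, with scores of 35, 44, 35, 40 and 38 along the chromosome. The groups of 3 were on chromosome 7 from 11619737 to 11636684 (scores 37, 37 and 46) and on chromosome 10 from 9785324 to 9874954 (scores 39, 44 and 41). The closest pairs started on chromosome 3 at 37592078 and 37593352 (scores 37 and 36, 1274 bp apart), on chromosome 1 at 39727614 and 39729366 (scores 35 and 37, 1752 bp apart) and on Z at 26737798 and 26739762 (scores 38 and 35, 1964 bp apart). Each pair thus consisted of peaks near the score limit, and their distances exceed the peak width of 399 bp.

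Differences by score in position or company within the group were not tested, and the values are described only. The median distance to the nearest shared peak was 156 kb (119 to 183) for the 397 peaks scoring 35 to 39, 208 kb (143 to 283) for the 149 scoring 40 to 49 and 178 kb (86.3 to 347) for the 24 scoring 50 or more, with overlapping intervals. Neighbours within 10 kb were present for 35.5% (30.8 to 40.4), 39.6% (31.7 to 47.9) and 41.7% (22.1 to 63.4) of these peaks. Across the 570 peaks, which share a library and a lower score limit, Spearman's rho with score was 0.08 for distance to the nearest shared peak and -0.0036 for the number of neighbours within 10 kb. The ratio of microchromosome to macrochromosome density was 1.55 (1.20 to 1.98), 1.35 (0.872 to 2.06) and 1.62 (0.440 to 5.05) in the 3 bands. With 24 peaks, the highest band could show only large differences.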

How the data were processed

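CTCF ChIP-seq was done on 1 library per age. The authors deposited 1 headerless list of 6 columns per library, in which each row is a peak with a whole-number score. The sources used here name no aligner, peak caller, control or genome build, and depth is unknown. All peaks are 399 bp wide. Peaks were compared start to start. Shared peaks overlap by at least 1 bp.

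Spans run to the last peak end of either list. Shares have Clopper-Pearson intervals, densities exact Poisson intervals, density ratios exact conditional binomial intervals and medians binomial order-statistic intervals, all at 95% and for counting error only. For a count of 0, a limit of up to 3 counts is given beside the upper end of the Clopper-Pearson interval, and it is the tighter of them. The functions were tested on simulated data.

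The members and the measures were chosen with earlier results of these data known. Named are the 10 highest members, the highest of each chromosome, the 3 farthest from a shared peak, the 3 with most neighbours and the 3 closest pairs, with ties broken by chromosome and start. Alternatives changed the score limit, distance, 5 day list, chromosomes, denominator and overlap. Tables were made with pandas 2.3.3 and numpy 2.4.6 in Python 3.11.15, intervals with scipy 1.17.1 and figures with matplotlib 3.10.9.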

Additional observations from a re-analysis of the deposited data

Results flagged for a closer look

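Peaks on sequence outside the assigned chromosomes met the same score and distance limits and entered none of the comparisons of the report, apart from the alternative that includes them. Of 455 such 10 day peaks scoring at least 35, on unplaced, random or linkage group sequence, 47 had no 5 day start within 10 kb (10.3%, 95% interval 7.69 to 13.5). Their scores ran from 35 to 71, and the highest was on Un_random at 11099137 to 11099535. Distances on Un_random are those of a concatenated sequence and need not be distances in the genome.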

How the results depend on the processing

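Of 57 alternative values, 35 stayed within the interval of the value reported (for the number of peaks, within 1.5 times) and 22 moved. Some of the 35 could not move, because neither unplaced sequence nor Z enters the density ratio. The score limit set the size of the group: limits of 30, 40 and 50 gave 1930, 173 and 24 peaks, which were 43.4%, 9.81% and 2.02% of the 10 day peaks above each limit. Another such peak within 100 kb was then found for 38.8%, 4.62% and 0% of them. A count of 0 in 24 allows up to 12.5% by a limit of 3 counts, or 14.2% by the Clopper-Pearson interval. At the limit of 50, 41.7% had another 10 day peak within 10 kb. Requiring only no overlap gave 28.7% of the stronger peaks, a median of 109 kb to a shared peak, 45.9% with another 10 day peak within 10 kb and 19.5% with another such peak within 100 kb. Requiring 20 kb gave 19.8% of the stronger peaks, a median of 199 kb to a shared peak and 11.7% with another within 100 kb. Counting only 5 day peaks above their median score as present gave 34.2% of the stronger peaks and 21.1% with another within 100 kb. The median of 75.2 kb under this setting, among the 22 that moved, is not read as a distance to a shared peak. Shared peaks were still defined with the full 5 day list, so a chosen peak that was itself shared counted as 0 kb away. Including unplaced sequence gave 20.9% of the stronger peaks. The density ratio stayed within its interval except when counted per 10 day peak, where it was 0.930. Leaving out Z and requiring 5 kb moved none of the values. The causes were not tested. No paired analysis was possible because there is a single library at either age, which also means that none can be left out. Unknown depth limits every statement on absence from the 5 day list.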

Other observations

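The assigned chromosomes spanned 1042 windows of 1 Mb, of which 430 held at least 1 10 day-only peak and 21 held 3 or more. The most was 6, on chromosome 21 from 1 to 1000000, where there were 60 peaks in all at 10 days and 9 at 5 days. Chromosome 10 had the next window, from 9000001 to 10000000, which held 4 of them among 22 peaks at 10 days, against 5 peaks at 5 days. These windows were chosen after their values were seen.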
